A study of Rattus norvegicus with 8 samples.

Results

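The transcripts described here encode enzymes of the tricarboxylic acid (TCA) cycle, the entry of pyruvate into it, the oxidation of branched-chain amino acids and the malate-aspartate shuttle. They were chosen by name from a list of 33 genes, with each gene read from its brightest probe set, by the mean of the 8 arrays. Probe sets annotated with exactly 1 gene symbol measured 31 of the 33, out of 14497 genes named on the array in this way. Dlst, a subunit of the 2-oxoglutarate dehydrogenase complex, shared its probe set with Afdn and was not used, and Fh, fumarase, had no probe set under this rule and was not analysed here.

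The RNA was taken from left ventricles of late-pregnant female rats. Every heart had been made ischemic and then reperfused, in 3 samples with vehicle (placebo) and in 5 samples with ILPD, 1 bolus of 5 mg/kg. The series title speaks of Intralipid, a lipid emulsion, and its design text writes ITLD, which is taken here to be the treatment the samples call ILPD. Strain, age, the length of ischemia and of reperfusion, and whether each sample was a separate animal are not given in the sources used here, so a p-value here is set against the variation among these 8 samples only, some of which may be technical. Hearts without ischemia were not analysed here.

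In the heart, the TCA cycle oxidises acetyl-CoA and passes the electrons to the respiratory chain. Carbohydrate carbon enters through the mitochondrial pyruvate carrier and the pyruvate dehydrogenase (PDH) complex, which is switched off when PDH kinases phosphorylate it and switched on again by PDH phosphatases. A related complex, branched-chain 2-oxoacid dehydrogenase, commits leucine, isoleucine and valine to oxidation and has a kinase of its own. The malate-aspartate shuttle carries reducing equivalents from the cytosol into the mitochondrion.

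Values are log2 intensities, and a difference is always ILPD minus placebo on that scale. The group difference was small for every member, and a single transcript passed the test. Pdk2, a kinase that inactivates the PDH complex, fell by 0.30, to 81.3% of the placebo level (limma adjusted p = 0.0329 over all 28826 probe sets), in 5 of 5 ILPD arrays. That call held in 7 of 15 alternative analyses and was lost after quantile normalization and after cyclic loess. No member rose, and 28 of 31 had a negative difference, against 41.5% of all probe sets, with a median of -0.17 and a range from -0.38 for Idh3a to 0.33 for Pdp2. The 1 called of 31 compares with 0.857% of all probe sets called lower, 1.96% called higher and 2.81% called either way. Before adjustment, 16 of the 31 had p under 0.05, against 18.3% of all probe sets.

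The level of a probe set mattered for reading these differences. Over all probe sets the median difference was 0.02, but over the 2147 named genes with a mean of at least 10 it was -0.13, and over the 410 with a mean of at least 12 it was -0.15. Of the members, 27 had a mean of at least 10. Among those 27, 26 (96.3%) had a negative difference, against 79.7% of all named genes that bright. Called lower were 1 of the 27, or 3.70%, against 4.1% of named genes that bright, and 14 (51.9%) had an unadjusted p under 0.05, against 38.2%. Each member was therefore also set beside the 500 other named genes nearest to it in mean, called genes of equal intensity below. For the brightest members the match was loose, since with 410 named genes at 12 or more the 500 had to include dimmer ones. Mdh1, Idh3b, Ogdh, Idh3g, Idh2 and Mdh2 all had the same neighbour median, -0.152. The members' median difference relative to these neighbours was -0.02, with 19 members below their neighbours' median and 12 above it. So the members as a group lay close to the genes nearest in intensity, which is a description and carries no test.

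**Figure D1:**
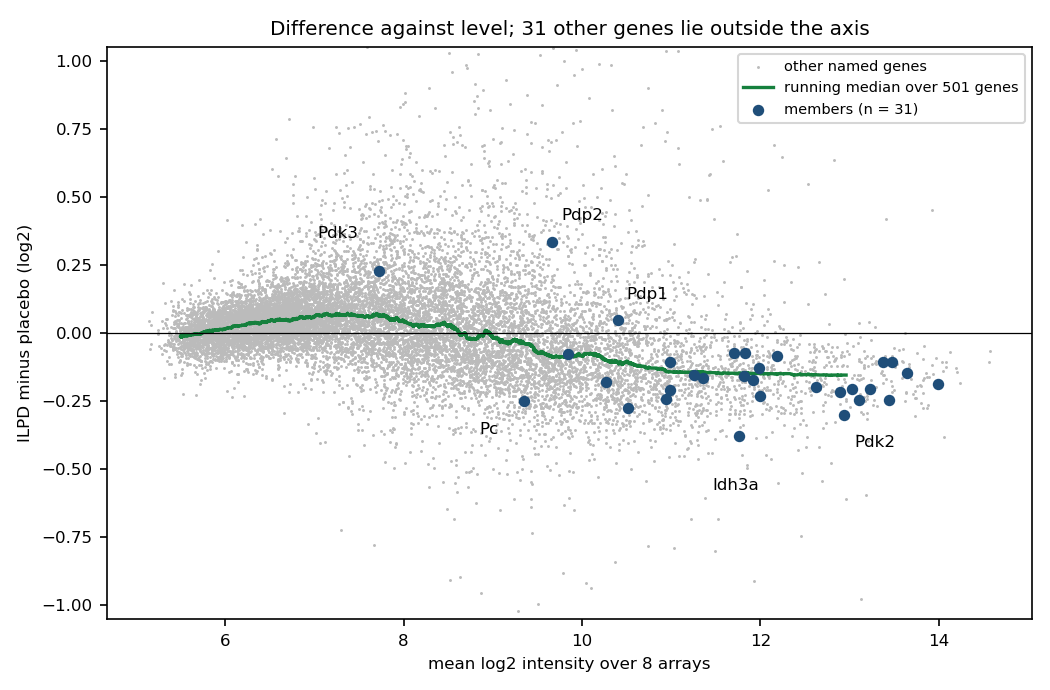
Difference between ILPD and placebo (vertical axis, log2) against mean log2 intensity over 8 arrays (horizontal axis) for 31 members (blue) and the other named genes (grey), with their running median (green). Most members lie around the running median, which is below 0 for bright genes; Idh3a, at -0.38, lies farthest under it and Pdp2, at 0.33, farthest above it.

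Further quantile normalization and cyclic loess, which removes shifts that depend on intensity, moved most members towards 0, while Pdp1 and Pdp2 moved further above it. The members' median of -0.17 as deposited became -0.05 after quantile normalization and -0.02 after cyclic loess. The number with a negative difference went from 28 to 22 and 19 of 31, and 0 members passed under either, with the lowest limma adjusted p at 0.187 and 0.200. Under each, 4 of 31 had an unadjusted p under 0.05. The median relative to genes of equal intensity stayed between -0.06 and 0.01 over 17 alternatives.

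**Figure D2:**
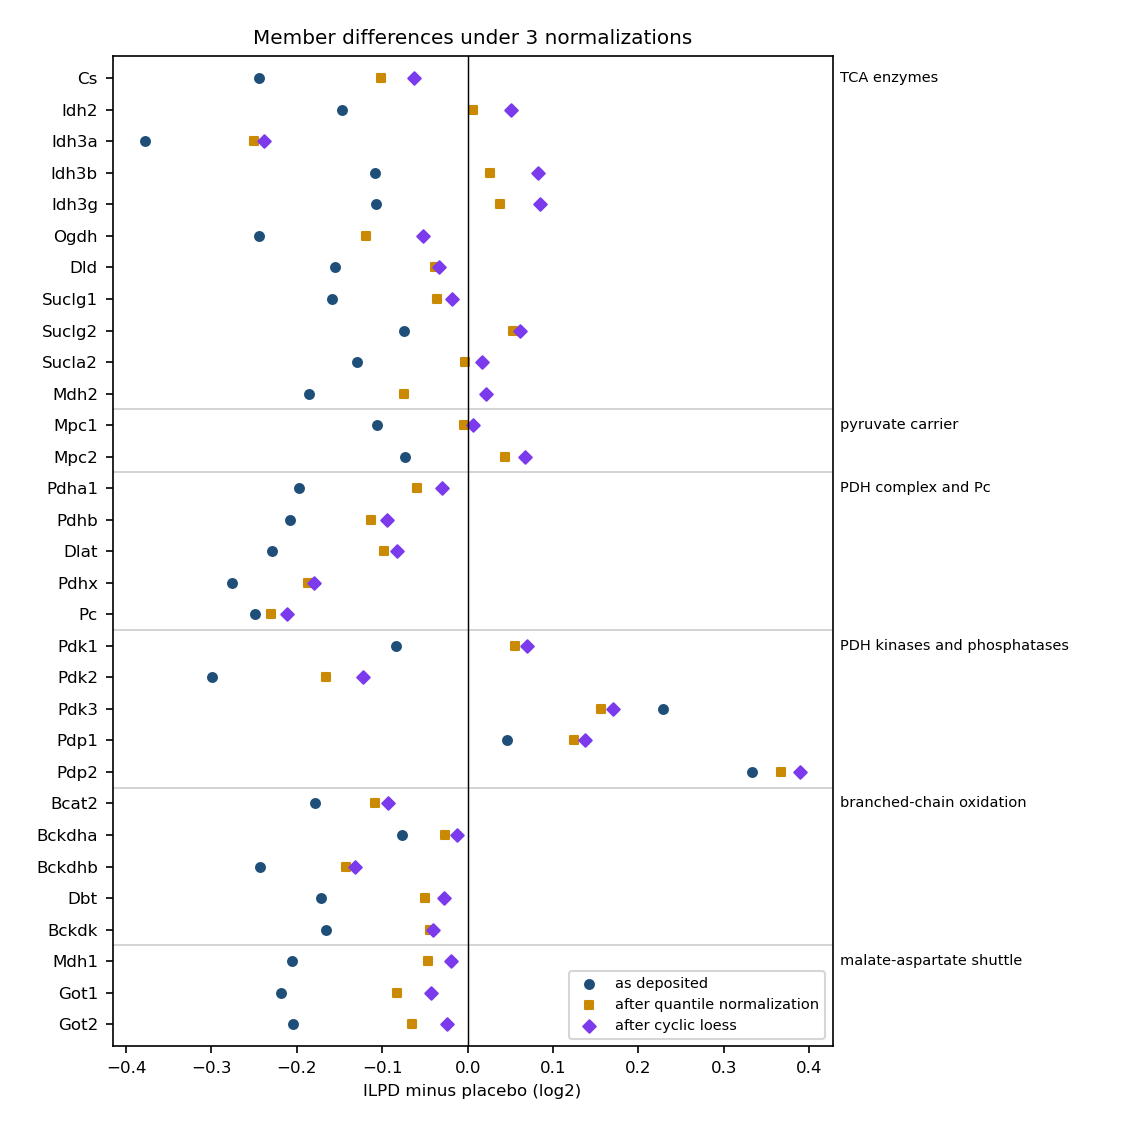
Difference between ILPD and placebo (log2) for each of 31 members as deposited (circles), after quantile normalization (squares) and after cyclic loess (diamonds), grouped by role. Most points move towards 0 after either normalization, and Pdp1 and Pdp2 away from it; Idh3a stays at -0.24 and Pdp2 at 0.39 after cyclic loess.

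The members did not differ evenly between ILPD arrays. The median deviation of the 31 members from their placebo mean was -0.13 on ILPD array 1, -0.10 on array 2, -0.23 on array 3, -0.25 on array 4 and -0.09 on array 5. Placebo arrays 1, 2 and 3 stood at 0.08, -0.08 and 0.00. ILPD arrays 3 and 4 were thus the lowest, with 26 of 31 members below every placebo array on each, against 15 to 19 on the other ILPD arrays. Other named genes with a mean of at least 10 deviated by -0.10, -0.08, -0.14, -0.22 and -0.08 on ILPD arrays 1 to 5, lowest on the same pair of arrays.

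Of the enzymes of the cycle itself, 0 of 11 passed the test, and all 11 had a negative difference, from -0.38 to -0.07 with a median of -0.16. Relative to genes of equal intensity their median was -0.01. Groups did not overlap for 4 of them, Cs, Idh3a, Idh3b and Ogdh. Among all 31 members 7 were lower without overlap and 0 higher, while 4.42% of all probe sets were lower and 7.95% higher without overlap. Of named genes with a mean of at least 10, 19.9% were lower without overlap. Among the 27 bright members the share was 25.9%.

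Citrate synthase, Cs (probe set 10893127), joins acetyl-CoA to oxaloacetate and had the lowest p of the cycle. Its placebo arrays read 13.33, 13.15 and 13.30 and its ILPD arrays 13.03, 13.09, 12.96, 12.93 and 13.07. All 5 ILPD values lay below the lowest placebo value, by a gap smaller than the spread of the placebo arrays. The difference was -0.24 (SE 0.06, 95% interval -0.39 to -0.10, limma adjusted p = 0.0723), and it was -0.09 relative to genes of equal intensity. A second, much dimmer probe set of Cs (10902022) differed by -0.03 (SE 0.06). Ogdh, which decarboxylates 2-oxoglutarate, read 13.65, 13.54 and 13.59 in placebo and 13.28, 13.34, 13.26, 13.36 and 13.50 in ILPD. ILPD array 5 came close to the placebo values, and the difference was -0.24 (SE 0.07, limma adjusted p = 0.0795). Ogdh passed in 1 of 15 alternatives, without ILPD array 5 (limma adjusted p = 0.0345). Leaving out that array also raised the calls over all probe sets from 811 to 975.

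NAD-dependent isocitrate dehydrogenase is built from the subunits Idh3a, Idh3b and Idh3g, and their transcripts did not lie together. Idh3a, the catalytic subunit (probe set 10910071), read 12.09, 11.83 and 12.08 in placebo and 11.70, 11.72, 11.41, 11.46 and 11.82 in ILPD. ILPD arrays 3 and 4 were lowest, and array 5 fell just short of placebo array 2. The difference was -0.38 (SE 0.11, 95% interval -0.61 to -0.14), the lowest of all 31 members, and it did not pass (limma adjusted p = 0.0910; 0.0563 to 0.264 over 15 alternatives). It was -0.23 below genes of equal intensity, of which 4.2% had a lower difference. Idh3b read 13.46, 13.46 and 13.42 in placebo and 13.38, 13.35, 13.30, 13.28 and 13.39 in ILPD. Its groups were apart by a narrow gap, with a difference of -0.11 (SE 0.05, adjusted p = 0.298). Idh3g differed by -0.11 as well (SE 0.05, adjusted p = 0.340), and both were 0.04 above genes of equal intensity. After cyclic loess Idh3a was at -0.24, Idh3b at 0.08 and Idh3g at 0.09. The comparison of the subunits was made after their values were seen and was not tested.

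The remaining enzymes of the cycle overlapped between groups. Idh2, the mitochondrial NADP-dependent isocitrate dehydrogenase, differed by -0.15, and Mdh2, the mitochondrial malate dehydrogenase, by -0.19. Dld, the dihydrolipoamide dehydrogenase that the PDH, 2-oxoglutarate and branched-chain complexes share, differed by -0.16 (SE 0.09). For succinyl-CoA ligase the differences were -0.16 for the common subunit Suclg1, -0.13 for the ATP-forming Sucla2 and -0.07 for the GTP-forming Suclg2. These 6 did not pass, with a limma adjusted p of up to 0.522.

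Promoter windows are shown for Idh3g, as an example of an isocitrate dehydrogenase subunit with a motif match, and for Pdk2 and Pdk3, PDH kinases whose differences had opposite signs. They run from 250 bases before to 50 after the RefSeq start, on GRCr8, 5′ to 3′ on the gene's strand, and capitals mark CCGGAAG, a site of the GABP factor (also called NRF-2), known for mitochondrial genes. Idh3g lies at chrX:156675433-156675732 (minus strand), Pdk2 at chr10:80483863-80484162 (minus strand) and Pdk3 at chrX:62547322-62547621 (minus strand).
Idh3g: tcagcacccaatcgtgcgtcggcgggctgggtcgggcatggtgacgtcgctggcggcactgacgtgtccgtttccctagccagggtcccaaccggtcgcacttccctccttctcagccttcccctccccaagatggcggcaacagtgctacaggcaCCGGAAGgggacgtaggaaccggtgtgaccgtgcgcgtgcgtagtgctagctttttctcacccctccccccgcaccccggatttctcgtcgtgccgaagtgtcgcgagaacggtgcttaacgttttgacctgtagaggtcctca
Pdk2: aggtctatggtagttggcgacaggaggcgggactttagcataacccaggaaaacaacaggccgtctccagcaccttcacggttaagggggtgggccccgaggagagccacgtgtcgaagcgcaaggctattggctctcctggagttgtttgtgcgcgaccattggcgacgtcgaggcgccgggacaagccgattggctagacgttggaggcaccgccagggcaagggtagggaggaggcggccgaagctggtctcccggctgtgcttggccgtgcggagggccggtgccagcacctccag
Pdk3: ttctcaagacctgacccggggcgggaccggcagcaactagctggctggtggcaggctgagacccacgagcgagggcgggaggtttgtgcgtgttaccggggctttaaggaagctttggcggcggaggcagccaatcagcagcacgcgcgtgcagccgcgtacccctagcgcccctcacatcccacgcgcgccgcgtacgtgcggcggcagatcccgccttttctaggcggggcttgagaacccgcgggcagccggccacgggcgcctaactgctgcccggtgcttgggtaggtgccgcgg
RefSeq windows were matched for 26 of the 31 measured members, and Idh3a, Pc, Pdp1, Pdp2 and Bckdha had none in the table. The letters CCGGAAG, searched on both strands, stood in 4 of the 26 (Idh3b, Idh3g, Mdh2 and Mpc2), or 15.4%, against 11.2% of 19005 windows of protein-coding genes. In Idh3g the match began 94 bases before the start. TNAAGGTCA, a site of estrogen-related receptors, stood in 0 of 26 and in 0.994% of protein-coding windows, and GCGCATGC, the core of an NRF-1 site, in 0 of 26 and in 3.23%. Neither Pdk2 nor Pdk3 held any of these letters in this window.

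Pyruvate reaches the matrix through Mpc1 and Mpc2, partners in the mitochondrial carrier, and 0 of 2 passed. Mpc1 read 11.16, 10.90 and 11.08 in placebo and 11.10, 11.003, 10.84, 10.87 and 10.89 in ILPD. The groups overlapped widely, and its difference was -0.11 (SE 0.08, limma adjusted p = 0.538). Mpc2 differed by -0.07 (SE 0.09, adjusted p = 0.712). Both lay slightly above genes of equal intensity, by 0.03 and 0.07.

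The PDH complex and pyruvate carboxylase differed by similar amounts. All 5 transcripts were lower in mean, from -0.28 to -0.20 with a median of -0.23, all 5 lay below genes of equal intensity, by a median of -0.08, and 0 passed the test, although all 5 had an unadjusted p under 0.05, as did 18.3% of all probe sets and 38.2% of named genes with a mean of at least 10. Pdhb, the beta subunit of the first enzyme of the complex, had the lowest p. It read 11.20, 11.05 and 11.12 in placebo and 10.88, 10.94, 10.78, 10.92 and 11.05 in ILPD. ILPD array 5 alone reached the placebo range, and its difference was -0.21 (SE 0.07, 95% interval -0.36 to -0.05, limma adjusted p = 0.146). Pdha1, the alpha subunit that carries the regulatory phosphorylation sites, differed by -0.20 (SE 0.07, adjusted p = 0.178), and Dlat, the acetyltransferase core, by -0.23 (SE 0.08, adjusted p = 0.161). Dlat passed in 1 of 15 alternatives, without ILPD array 5 (limma adjusted p = 0.0454). Pdhx, which anchors Dld to the core, differed by -0.28 (SE 0.11, adjusted p = 0.232). Pc, which makes oxaloacetate from pyruvate and so refills the cycle, differed by -0.25 (SE 0.10, adjusted p = 0.219) and lay -0.21 below genes of equal intensity. After cyclic loess the 5 kept a negative sign, from -0.21 for Pc to -0.03 for Pdha1.

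**Figure D3:**
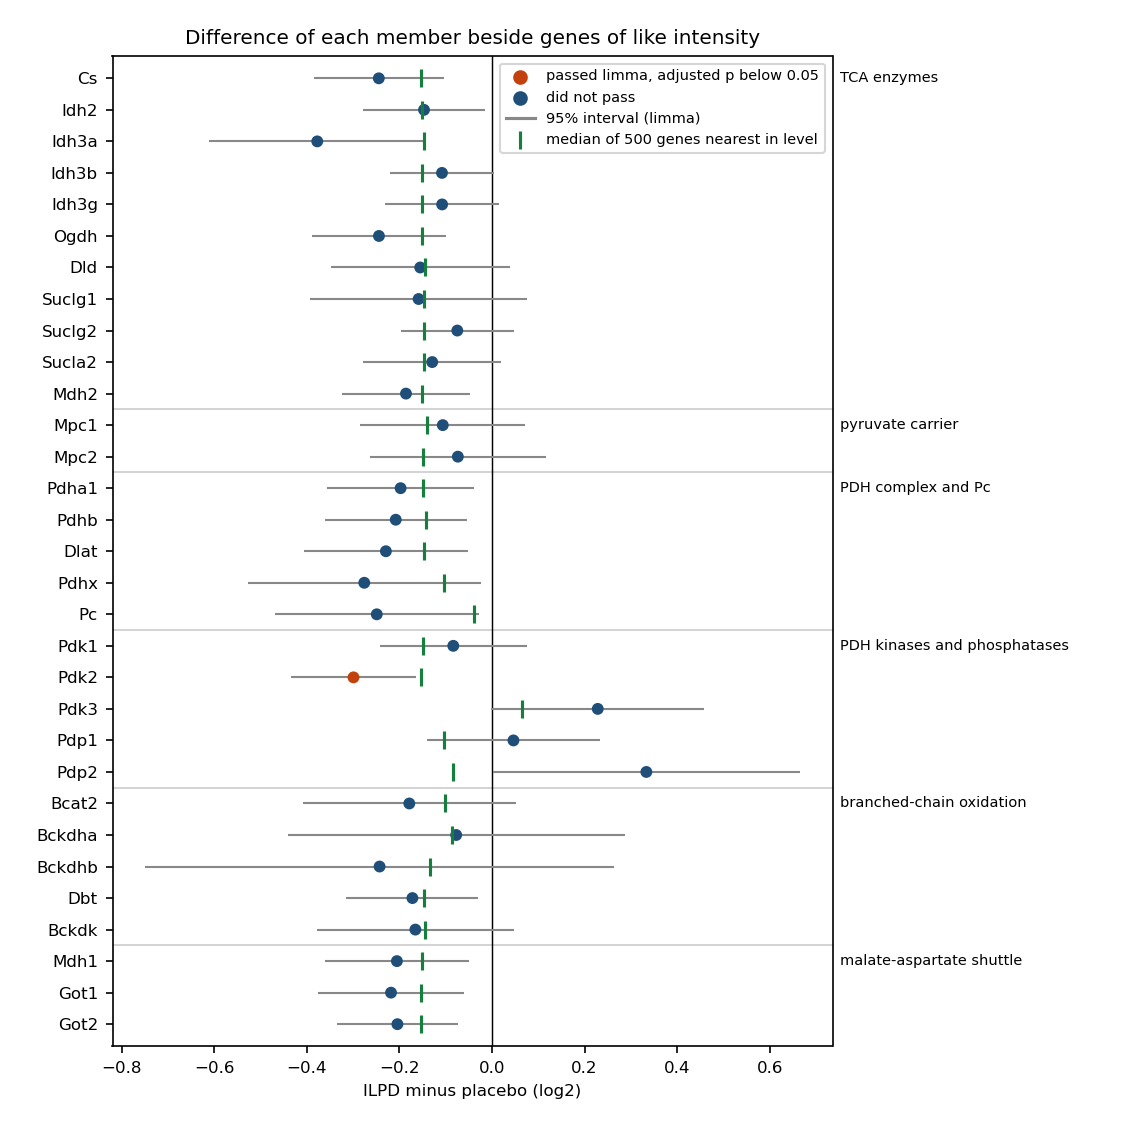
Difference between ILPD and placebo (log2, horizontal axis) with its 95% interval from limma for each of 31 members, grouped by role, and the median difference of the 500 other named genes nearest in level (green tick). Pdk2 (orange), at -0.30, is the member that passed the test; Pdk3, Pdp1 and Pdp2 are the members with a positive difference.

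The kinases and phosphatases that switch the PDH complex were the group with mixed signs. Of 5 members 1 fell and 0 rose, where 0.857% of all probe sets were called lower and 1.96% higher. Of named genes with a mean of at least 10, 4.1% were called lower. Among the 5, 2 had a negative and 3 a positive difference, and 4 of 5 lay above genes of equal intensity. Pdk2 (probe set 10746469) read 13.12, 13.14 and 13.11 in placebo and 12.84, 12.87, 12.86, 12.67 and 12.87 in ILPD. The placebo values were nearly equal, and every ILPD value lay below them, with array 4 the lowest. The means were 13.12 ± 0.02 (SD, n = 3) and 12.82 ± 0.09 (SD, n = 5), a 1.23-fold difference (SE 0.06 on the log2 scale, 95% interval -0.43 to -0.17). Relative to genes of equal intensity Pdk2 was at -0.15, and 8.2% of these neighbours had a lower difference. Its call held in 7 of 15 alternatives. It was lost after quantile normalization (-0.17, limma adjusted p = 0.187) and after cyclic loess (-0.12, 0.314). It was also lost without any 1 of placebo arrays 1, 2 and 3 or ILPD arrays 2 and 3, with adjusted p from 0.0551 to 0.116 and the difference between -0.31 and -0.29.

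Pdk1, a kinase known to be induced by hypoxia, read 12.31, 12.29 and 12.12 in placebo and 12.17, 12.16, 12.30, 12.04 and 12.12 in ILPD. Its groups overlapped throughout, with a difference of -0.08 (SE 0.07, limma adjusted p = 0.595). Pdk3, a further kinase of the complex, read 7.75, 7.54 and 7.47 in placebo and 7.89, 7.80, 7.63, 8.06 and 7.70 in ILPD. Its difference was 0.23 (SE 0.10, adjusted p = 0.277), with ILPD arrays 3 and 5 inside the placebo range. Pdk3 was the dimmest of the 31 members, at a mean of 7.73. It lay 0.16 above genes of equal intensity, of which 83.2% had a lower difference. Pdk4, the kinase induced by fatty acids and fasting and no member of the list, differed by -0.21 (SE 0.11, adjusted p = 0.322), with levels of 13.87 ± 0.22 (SD, n = 3) and 13.66 ± 0.14 (SD, n = 5).

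Pdp2, a phosphatase that reactivates the PDH complex (probe set 10809001), had the largest positive difference of the members. It read 9.61, 9.19 and 9.56 in placebo and 9.76, 9.91, 9.35, 9.92 and 10.003 in ILPD. All ILPD arrays but array 3 lay above every placebo array. The difference was 0.33 (SE 0.15, 95% interval 0.00 to 0.67) and did not pass (limma adjusted p = 0.270; 0.0804 without ILPD array 3, where it was 0.44). It was 0.42 above genes of equal intensity, of which 92.8% had a lower difference. Pdp1, the calcium-stimulated phosphatase, read 10.46, 10.44 and 10.21 in placebo and 10.62, 10.40, 10.35, 10.36 and 10.35 in ILPD, a difference of 0.05 (SE 0.08, adjusted p = 0.832) within the spread of either group. It was 0.12 after quantile normalization and 0.14 after cyclic loess, with adjusted p of 0.519 and 0.499.

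**Figure D4:**
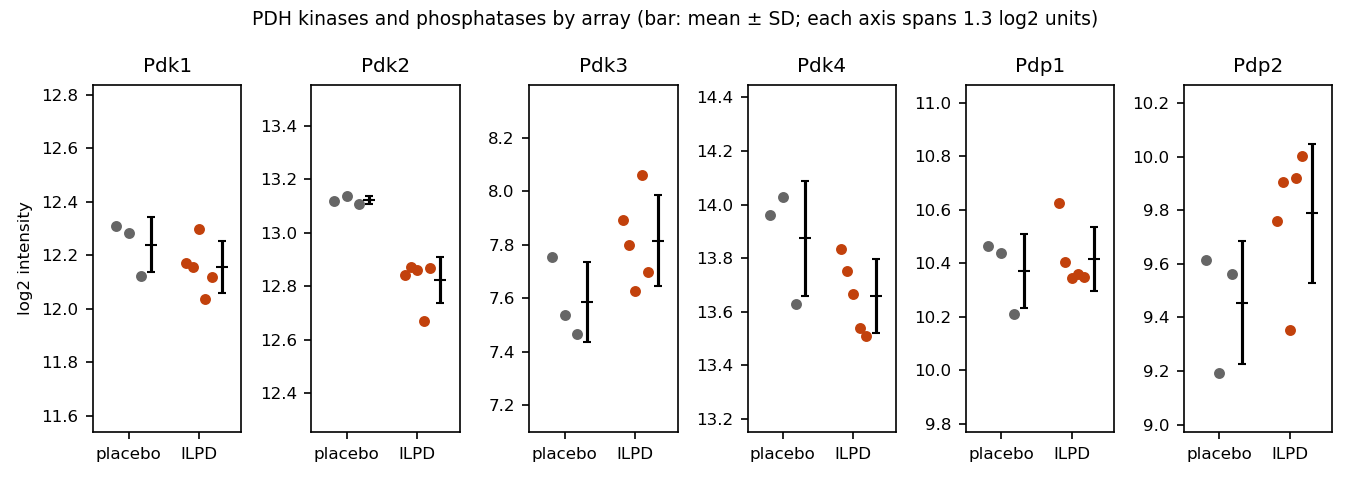
Log2 intensity of the PDH kinases Pdk1 to Pdk4 and phosphatases Pdp1 and Pdp2 on 3 placebo (grey) and 5 ILPD (orange) arrays, with mean ± SD beside the points; each vertical axis spans 1.3 log2 units. Pdk2 is the transcript here whose ILPD values, 12.67 to 12.87, all lie below its placebo values, and Pdp2 has 4 of 5 ILPD arrays above its placebo values.

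Whether functional partners differed unequally between groups was tested for 9 pairs by an exact permutation test of the within-array log2 ratio over the 56 ways to part 8 arrays into 5 and 3, two-sided, with Benjamini-Hochberg adjustment over the 9. The smallest p this design can give is 0.0357. The ratio of Pdk2 to Pdp1 reached it: it was 2.66, 2.70 and 2.90 in placebo and 2.22, 2.47, 2.51, 2.31 and 2.52 in ILPD. All 5 ILPD ratios were below all 3 placebo ratios, a difference of -0.35 (exact p = 0.0357), but after adjustment it did not pass (0.321). That outcome was set by the design, since 1 pair alone at the smallest p becomes 0.321 after adjustment over 9. It therefore does not decide whether the ratio differed. Pdk2 by itself differed by -0.30 and Pdp1 by 0.05, so the ratio largely repeats the difference of Pdk2. The difference of the Pdk2 to Pdp1 ratio was -0.29 after quantile normalization and -0.26 after cyclic loess, with the same exact p of 0.0357. Adjusted over the 9 pairs, these p-values were 0.161 and 0.321, and neither passed. As deposited, the other 8 pairs had an exact p of at least 0.179. Pdk2 against its substrate Pdha1 differed by -0.10 and Pdk1 against Pdha1 by 0.11. Sucla2 against Suclg2 differed by -0.05, Pc against Pdha1 by -0.05 and Mpc1 against Mpc2 by -0.03. Pc against Pdha1 moved to -0.17 after quantile normalization (exact p = 0.0357, adjusted 0.161) and to -0.18 after cyclic loess (exact p = 0.0714, adjusted 0.321).

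For branched-chain oxidation, 0 of 5 passed and all 5 had a negative difference, with a median of -0.17 that was -0.02 relative to genes of equal intensity. Dbt, the acyltransferase core of the branched-chain complex, had the lowest p. It read 12.11, 11.93 and 12.04 in placebo and 11.93, 11.93, 11.84, 11.74 and 11.84 in ILPD. The groups were barely apart, and the difference was -0.17 (SE 0.06, limma adjusted p = 0.191). Bcat2, the mitochondrial aminotransferase that takes the first step, differed by -0.18, and Bckdk, the kinase that inactivates the complex, by -0.17, both with an adjusted p of 0.405. Bckdhb and Bckdha, the subunits of the first enzyme of the complex, had the widest spread of the 5. Bckdhb ran from 10.72 to 11.28 in placebo and from 10.30 to 11.37 in ILPD (difference -0.24, SE 0.23). Bckdha had 4 ILPD arrays between 9.86 and 10.01 and array 5 at 9.26 (difference -0.08, SE 0.16). Without that array its difference was 0.06. The ratio of Bckdk to Bckdha differed by -0.09 (exact permutation p = 0.714).

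The 3 enzymes of the malate-aspartate shuttle lay close together. Mdh1, the cytosolic malate dehydrogenase, Got1, the cytosolic aspartate aminotransferase, and Got2, its mitochondrial counterpart, differed by -0.21, -0.22 and -0.20. In limma 0 of 3 passed, and each had an unadjusted p under 0.05. That p was reached by 18.3% of all probe sets and by 38.2% of named genes with a mean of at least 10. Got2 read 13.20, 13.08 and 13.20 in placebo and 12.93, 12.95, 12.97, 12.87 and 13.05 in ILPD. Its groups did not overlap, and the difference was -0.20 (SE 0.06, 95% interval -0.34 to -0.07, limma adjusted p = 0.0994). The 3 lay -0.06 to -0.05 below genes of equal intensity. Cytosolic and mitochondrial forms had nearly equal differences: the ratio of Got1 to Got2 differed by -0.01 and that of Mdh1 to Mdh2 by -0.02 (exact permutation p = 0.786 and 0.679).

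**Figure D5:**
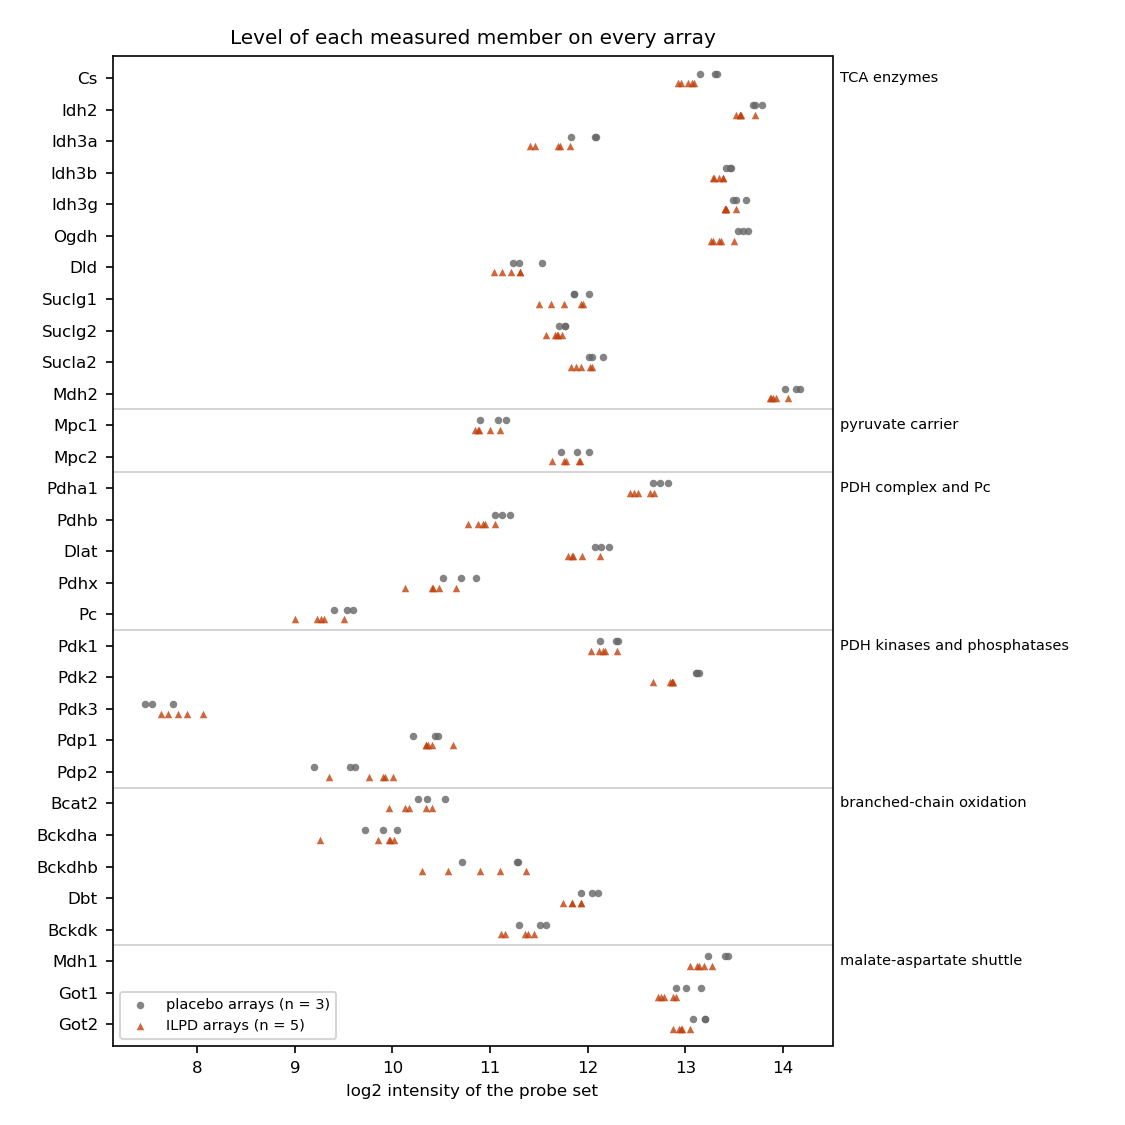
Log2 intensity of each of 31 members (rows, grouped by role) on the 3 placebo arrays (grey circles) and 5 ILPD arrays (orange triangles). Levels of different probe sets cannot be compared with each other; within a row, 7 members have all ILPD values below all placebo values.

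Other genes of these pathways also differed little. Of 52 further genes fixed as a list, 46 were measured, among them succinate dehydrogenase, malic enzymes, lactate dehydrogenases, lipoate synthesis and the later steps of branched-chain breakdown. None of the 46 passed in limma, and 14 (30.4%) had an unadjusted p under 0.05. That p was reached by 18.3% of all probe sets and by 38.2% of named genes with a mean of at least 10. The median level of the 46 was 10.78. Of the 46, 36 had a negative difference, with a median of -0.13 that was -0.03 relative to genes of equal intensity. The lowest adjusted p was 0.0985, for the oxoglutarate carrier Slc25a11 (-0.24), which serves the malate-aspartate shuttle. Sdha, the catalytic subunit of succinate dehydrogenase, differed by -0.16 (adjusted p = 0.345) and Ldha, which makes lactate, by -0.27 (0.187). Groups did not overlap for 6 lower genes (Slc25a11, Sdhb, Sdhd, Ppm1k, Mccc1 and Mccc2) and 1 higher. Of all probe sets, 4.42% were lower and 7.95% higher without overlap. All 6 lower genes had a mean of at least 10, and of named genes that bright 19.9% were lower without overlap. Acadsb, an acyl-CoA dehydrogenase of isoleucine breakdown, was the higher one (0.25, adjusted p = 0.293).

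Markers fixed for the cell types of the ventricle were read on the same arrays. All 14 cardiomyocyte markers were measured at means between 12.44 and 14.57, and all 14 had a negative difference, with a median of -0.13 that was 0.02 relative to genes of equal intensity. Their summed level (log2 of the sum) ran from 17.59 to 17.63 in placebo and from 17.39 to 17.57 in ILPD. Of the 14 markers 1 fell, Tnnc1, cardiac troponin C (-0.37, limma adjusted p = 0.0195). Called lower were 0.857% of all probe sets and 4.1% of named genes with a mean of at least 10. All 9 measured leukocyte markers had a positive difference, with a median of 0.48, and 0 passed. Their summed level ran from 12.43 to 12.96 in placebo and from 12.85 to 13.78 in ILPD. Of 7 endothelial markers 6 had a positive difference and 1 rose, Egfl7 (0.60, adjusted p = 0.0282), where 1.96% of all probe sets were called higher. Of the markers of fibroblasts (6 of 6 negative), smooth muscle (4 of 4 positive), adipocytes (4 of 4 positive) and red cells (2 of 3 negative), 0 passed. Relative to genes of equal intensity the median was 0.47 for leukocyte, 0.23 for endothelial and 0.16 for smooth muscle markers. It was 0.08 for adipocyte, -0.11 for fibroblast and -0.02 for red cell markers. The adipocyte markers were dim, at means from 6.46 to 6.98. In tissue RNA, fewer cardiomyocytes and less transcript per cardiomyocyte cannot be told apart, and the part of cell composition in the members' differences was not tested.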

How the data were processed

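Affymetrix arrays measured total RNA in 8 samples of rat left ventricle. The authors deposited log2 values per probe set (R 2.14.2, per the submitters' processing notes); how they were normalized is not stated in the labels or files, and the log2 scale was read from the range of the values. Array medians ran from 7.08 to 7.14 in placebo and from 7.16 to 7.20 in ILPD, without overlap. The number of arrays limits the precision. Names came from the platform annotation: 15209 of 28826 probe sets had 1 symbol, 306 several and 13311 none here.

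The fit used lmFit and eBayes (limma 3.58.1, R 4.3.3) with the group as its only term. The p-values were two-sided, adjusted after Benjamini and Hochberg across all probe sets, and called under 0.05. A prior check used simulated arrays with independent noise and no shift by intensity between groups, so it does not cover such a shift. Pairs were tested by exact permutation (scipy 1.17.1). Members, lists and tests were chosen with earlier results of these data known. Values on every array are given for members that passed, did not overlap, had the lowest p of their role group or a sign opposite to its median; those of Pdk3, Pdp1 and Pdp2, and the GABP and NRF-1 motifs, were added after values were seen. Alternatives were quantile and cyclic loess normalization, an intensity trend with robust prior, array weights, omission of the dimmest 40% of probe sets, averaging a gene's probe sets, the replicate number as a block, and leaving out each array.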

Additional observations from a re-analysis of the deposited data

Results flagged for a closer look

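In 5 of 34 genes examined, 1 of the 5 ILPD arrays stood far from the others by Dixon's test, which chance gives in about 1 of 20 groups. ILPD array 5 was the high one for Idh2 (13.71, the next at 13.57) and Idh3g (13.52, the next at 13.42), and the low one for Bckdha (9.26, the next at 9.86). ILPD array 4 was low for Pdk2 (12.67, the next at 12.84), and without it the difference of Pdk2 was -0.26 and still passed (limma adjusted p = 0.0410). ILPD array 1 was high for Pdp1 (10.62, the next at 10.40), and without it the difference of Pdp1 was -0.01. The cause was not tested.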

How the results depend on the processing

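Under quantile normalization, cyclic loess or the replicate block, 0 of 31 members passed, against 1 as deposited; leaving out 1 array gave 0 to 3, and 0 rose under any of 15 alternatives. Pdk2 differed by -0.26 with the block (limma adjusted p = 0.119). Replicate numbers are shared by 3 pairs of arrays, whose deviations correlated at 0.22, -0.06 and -0.10, so the numbers were not taken to pair samples. The median member difference of -0.17 was -0.047 after quantile normalization and -0.025 after cyclic loess, and -0.23 to -0.12 with 1 array left out. Over all probe sets, 247 were lower and 564 higher as deposited; the block gave 122 and 337, leaving out 1 array 56 to 375 and 116 to 600, and quantile normalization 302 higher. The share of higher among calls was 69.5% as deposited and between 61.5% and 74.6% over these alternatives.

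Signs turned for members that passed in neither fit. After cyclic loess these were Idh2 (0.051), Idh3b (0.082), Idh3g (0.085), Suclg2 (0.062), Sucla2 (0.017), Mdh2 (0.021), Mpc1 (0.0063), Mpc2 (0.067) and Pdk1 (0.069). After quantile normalization they were Idh2 (0.0059), Idh3b (0.026), Idh3g (0.038), Suclg2 (0.053), Mpc2 (0.044) and Pdk1 (0.055), and the ratio of Mdh1 to Mdh2 (0.028). Bckdha turned to 0.095 with the block; leaving out 1 array gave -0.162 to 0.062, above 0 without ILPD array 5 and without placebo array 1. With 1 array left out, Pdp1 ran from -0.033 to 0.093, below 0 without ILPD array 1 and without placebo array 3. The cause was not tested.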
